A study of Mus musculus with 5 samples.

Results

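The genes described here are the guidance cue genes of the mouse lung count table, taken as every gene symbol that names a semaphorin, plexin, neuropilin, ephrin, Eph receptor, Slit, Robo, netrin or UNC5. The symbols were matched by spelling alone, with no use of the counts, and 70 of the 23478 genes in the table matched. They comprised 7 class 3 semaphorins, 13 membrane semaphorins, 12 plexins and neuropilins, 8 ephrins, 14 Eph receptors, 7 Slits and Robos, and 9 netrins and UNC5 receptors. A pair of these symbols are not guidance receptors, since Plxna4os1 is an antisense RNA of Plxna4 and Unc5cl encodes an intracellular signaling protein with an UNC5-like name.

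RNA-Seq was made from GFP-sorted lung cells of 5 libraries at P6. The 2 control libraries came from mice with Gli1creER, Rosa-EGFP and the Igf1r genotype Flox/Wildtype, and the 3 Igf1r-deleted libraries from mice with Gli1creER, Rosa-EGFP and Igf1r Flox/Flox. Tamoxifen was given to all pups at P0 and P1 (100 µg each time), so control cells can lose 1 copy of Igf1r and Igf1r-deleted cells 2 copies. Cre was driven from the Gli1 locus and GFP marks the cells in which it was active, which the study describes as including myofibroblasts and lipofibroblasts, with few smooth muscle cells and pericytes, on a mixed background and in both sexes. How many pups made up a library is not given in the sources used here, so the p-values measure only the spread between these samples.

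Guidance cues were first known from growing axons, which they attract or repel, and the same proteins steer vessels, epithelial branches and migrating mesenchymal cells. Semaphorins act on plexins, and the secreted class 3 members mostly need a neuropilin as coreceptor. Ephrins are held on the cell surface and signal to Eph receptors on neighboring cells, and signals also run back into the ephrin-bearing cell. Slits bind Robo receptors, and netrins bind DCC, neogenin and the UNC5 receptors. In the postnatal lung, septa form where myofibroblasts, epithelium and capillaries meet, and such cues are known to be made there.

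The libraries held 35116766 to 37597857 counts. Levels are given as CPM, which is counts relative to library size after TMM scaling, and differences as the log2 fold change of Igf1r-deleted over control, from edgeR's quasi-likelihood F test fitted on all 15298 genes with enough counts. Igf1r itself was at 324 CPM in each control and at 140, 177 and 194 CPM after its deletion, so the genotypes of the labels were visible in every library. The fibroblast label was met by high Col1a1 (5212 to 7114 CPM), Tcf21 (902 to 1662 CPM) and Pdgfra (480 to 684 CPM). Control replicate 1 stood apart from the other libraries. It lay farther from the Igf1r-deleted mean than control replicate 2 for 66.7% of the genes tested and for 44 of the 64 tested guidance genes (68.8%), so results are also given without it.

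Of the 70 guidance genes, 64 passed the filter on low counts and 6 did not. The 6 were Plxna4os1, Epha10, Epha6, Robo3, Ntn5 and Unc5cl, with at most 10 counts in any library. Epha6 had 0 counts in all 5 libraries, which at this depth allows up to 3 counts, or 0.0754 to 0.0864 CPM by library. Such limits cover counting error only.

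With expression set on a common scale as CPM per kilobase of exon, 55 of the 70 genes had a mean above 1 and 26 a mean above 10. Efnb1, which encodes the transmembrane ligand ephrin-B1, was the most abundant at 105 ± 5.54 CPM per kb (SD, n = 5), and its lowest library lay above the highest library of the next gene. Slit3 followed with 62.1 ± 4.07, Nrp1 with 56.7 ± 24.3, Plxnb2 with 52.0 ± 3.71, Slit2 with 51.4 ± 7.42 and Plxnd1 with 51.0 ± 6.36 CPM per kb (SD, n = 5 each). The ranges over libraries of each of these neighbors in the order overlapped, so their order is not firm. Ntn1 (44.0 ± 6.40 CPM per kb) and Nrp2 (41.1 ± 3.42 CPM per kb) came next (SD, n = 5 each), followed by the Eph receptor Ephb4, which binds ephrin-B2, at 37.7 ± 2.81 CPM per kb (SD, n = 5).

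**Figure D1:**
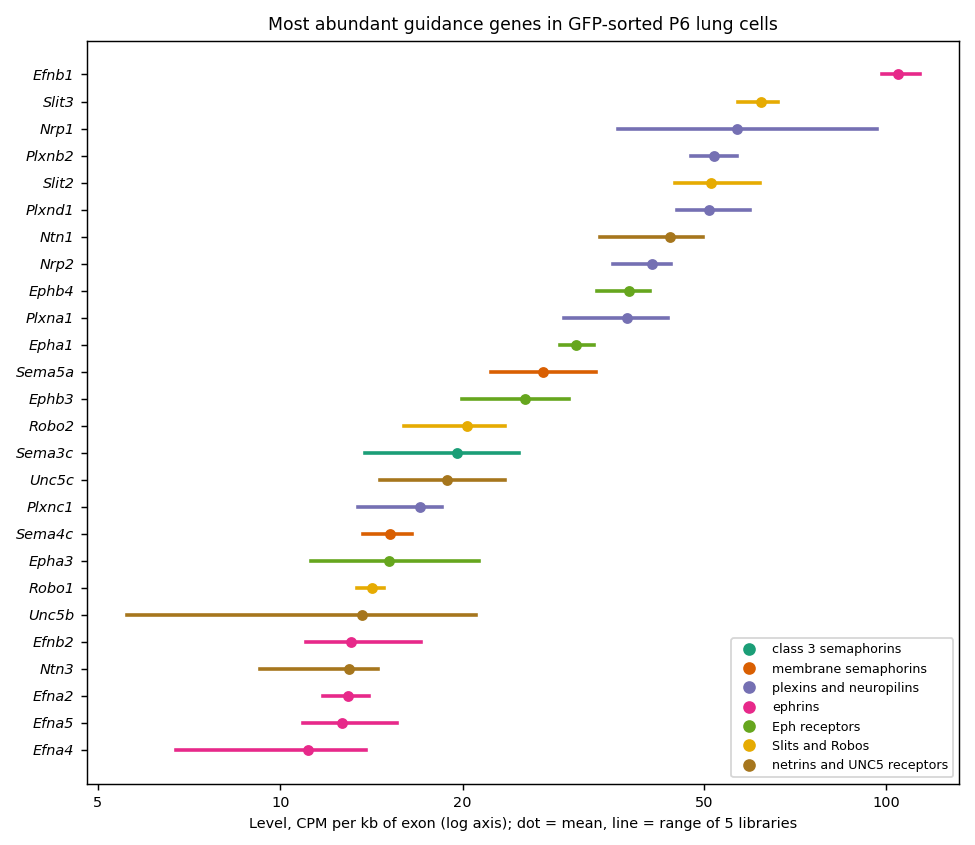
Level of the 26 guidance genes with a mean above 10 CPM per kb of exon, on a log axis, with dots for the mean and lines for the range of the 5 libraries, colored by family. Efnb1 stands alone at the top, and the lines of Nrp1 and Unc5b are among the widest.

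Ligands and receptors of every system were present in the same libraries. Among the secreted semaphorins Sema3c was highest (19.6 CPM per kb), then Sema3d (8.63) and Sema3f (7.42 CPM per kb). Among the membrane semaphorins Sema5a led (27.1 CPM per kb), ahead of Sema4c (15.2) and Sema6d (8.97 CPM per kb). Robo2 (20.4 CPM per kb) and Robo1 (14.2) were the receptors for the abundant Slits, whereas Slit1 was at 0.196 CPM per kb. Unc5c (18.9 CPM per kb) and Unc5b (13.6) were the main UNC5 receptors, and Dcc, which encodes the attractive netrin receptor, was almost absent, at 0.922 and 1.15 CPM in control cells, against 1.46 to 1.92 CPM in Igf1r-deleted cells.

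The level of Epha1 (30.8 CPM per kb) is uncertain. EphA1 is best known from epithelium. The epithelial marker Epcam was at 1.92 to 5.10 CPM. The 16 epithelial markers together summed to 1238 and 1154 CPM in control cells, against 568 to 1245 CPM in Igf1r-deleted cells. Epha1 was at 114 to 130 CPM. Of its exon length, 6.01% overlaps Zyx on the opposite strand, which was at 948 ± 41.6 CPM (SD, n = 5), and whether reads were counted by strand is not given in the sources used here. How many of the Epha1 reads come from Zyx or from epithelial cells was not tested. Exons of other genes also cover 10.7% of Plxna1, 10.5% of Efna4, 7.27% of Sema4c and 4.46% of Ntn3.

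The promoters below are those of Unc5b, Sema7a and Epha3. Unc5b and Sema7a are shown because their differences between genotypes, up for Unc5b and down for Sema7a, kept an unadjusted p under 0.05 under the most settings tried, and Epha3 because it is the only Eph receptor gene with a lower level in Igf1r-deleted libraries at an unadjusted p under 0.05. Each sequence is the 250 bases before the RefSeq start site on GRCm38.p6 (mm10), written along the gene's strand, with GC boxes (GGGCGG or CCGCCC) and TEAD motifs (GGAATG or CATTCC) in capitals. TEAD factors are the DNA-binding partners of YAP.
Unc5b (chr10:60831582-60831831, minus strand): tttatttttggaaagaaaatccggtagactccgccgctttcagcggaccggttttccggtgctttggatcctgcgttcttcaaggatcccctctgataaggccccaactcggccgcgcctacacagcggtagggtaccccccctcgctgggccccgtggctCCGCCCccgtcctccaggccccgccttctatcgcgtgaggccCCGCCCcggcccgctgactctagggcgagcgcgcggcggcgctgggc
Sema7a (chr9:57939862-57940111, plus strand): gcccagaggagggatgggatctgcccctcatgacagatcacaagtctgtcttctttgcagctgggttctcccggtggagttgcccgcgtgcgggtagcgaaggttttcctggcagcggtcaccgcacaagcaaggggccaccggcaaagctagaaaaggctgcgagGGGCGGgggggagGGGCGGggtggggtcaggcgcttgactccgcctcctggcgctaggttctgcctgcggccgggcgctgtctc
Epha3 (chr16:63864176-63864425, minus strand): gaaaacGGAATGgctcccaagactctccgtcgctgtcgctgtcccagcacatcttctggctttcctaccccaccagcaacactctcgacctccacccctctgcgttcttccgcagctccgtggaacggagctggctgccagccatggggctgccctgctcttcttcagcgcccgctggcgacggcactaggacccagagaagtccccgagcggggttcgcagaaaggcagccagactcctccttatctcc

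The Unc5b and Sema7a windows each hold 2 GC boxes and no TEAD motif, and the Epha3 window holds 1 TEAD motif and no GC box. RefSeq promoters were matched for 55 of the 64 tested guidance genes. Where a gene had more than 1 promoter entry, a motif in any of them counted, and GC content was taken from the first. A GC box, searched on both strands, occurred in 41 of these 55 (74.5%), against 61.4% of the 11269 tested genes with a promoter, and the median GC content of the windows was 65.2% against 59.6%. A TEAD motif occurred in 8 of the 55 (14.5%, against 13.2% of all), namely Efnb2, Epha1, Epha2, Epha3, Ntn3, Plxnb1, Plxnd1 and Sema4a. The FOXO motif TGTTTAC was found for 2.68% of all tested genes with a promoter and the GLI motif GGGTGGTC for 0.967%. Neither was found for any of the 55 guidance genes. The TEAD and GC box letters do not overlap each other in the sequences shown. A match of letters is a description and not a binding site.

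Whether loss of the second Igf1r copy went with a change of these genes was asked with the comparison of genotypes. None of the 64 tested guidance genes had an adjusted p under 0.05 (the lowest was 0.354, edgeR with Benjamini-Hochberg adjustment), as was so for the whole table, of which 0% were called. At an unadjusted p under 0.05 there were 6 lower genes (Nrp1, Sema5a, Sema6b, Sema7a, Epha3 and Efna1) and 5 higher genes (Unc5b, Epha8, Sema3c, Ephb3 and Plxnd1). The 11 make up 17.2% of the guidance genes, against 12.4% of all genes tested, of which 6.75% were lower and 5.65% higher. The genotypes did not overlap for 10 lower and 8 higher guidance genes, or 28.1%, against 31.0% of all genes (14.9% lower and 16.0% higher). The 64 divided evenly, 32 lower and 32 higher (47.7% of all genes were lower), with a median log2 fold change of −0.0031 against 0.015 for all genes. These shares are near those of the whole table, so the group did not stand out, and the account that follows is of single genes.

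With library totals in place of TMM the split moved to 4 lower and 9 higher guidance genes at an unadjusted p under 0.05, as it did for all genes (744 lower and 1343 higher, against 1032 and 865). DESeq2's Wald test called 1 guidance gene, Unc5b, at an adjusted p under 0.05, as higher and none as lower, against 1.70% of all genes to which it gave an adjusted p (1.23% lower and 0.477% higher). The study's limits were a log2 fold change of 0.5 or more in either direction, an unadjusted p under 0.05 from DESeq and a floor on FPKM. With edgeR's p and fold change and CPM per kb above 1 in their place, 5 guidance genes passed (Unc5b, Epha8, Nrp1, Epha3 and Sema7a), or 7.81%, against 4.48% of all genes tested. With DESeq2's p and fold change, tried after seeing the data, 6 passed (Unc5b, Sema6d, Nrp1, Epha3, Sema7a and Efna1), or 9.38%, against 4.99%. With control replicate 1 left out, of the 11 genes above only Sema5a kept an unadjusted p under 0.05, and the counts over all 64 were 2 lower and 0 higher. In that fit 2.76% of all genes had an unadjusted p under 0.05. That fit leaves 1 control, so no conclusion is drawn from it. The calls also depended on the Igf1r-deleted libraries. All 11 kept an unadjusted p under 0.05 in edgeR without Igf1r-deleted replicate 1. Without replicate 2, 4 did (Efna1, Sema6b, Sema7a and Unc5b), and without replicate 3, 3 did (Sema6b, Sema7a and Unc5b). Of all genes, 21.0%, 6.58% and 7.35% had such a p in these fits. All 11 guidance genes kept their direction under every setting tried.

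**Figure D2:**
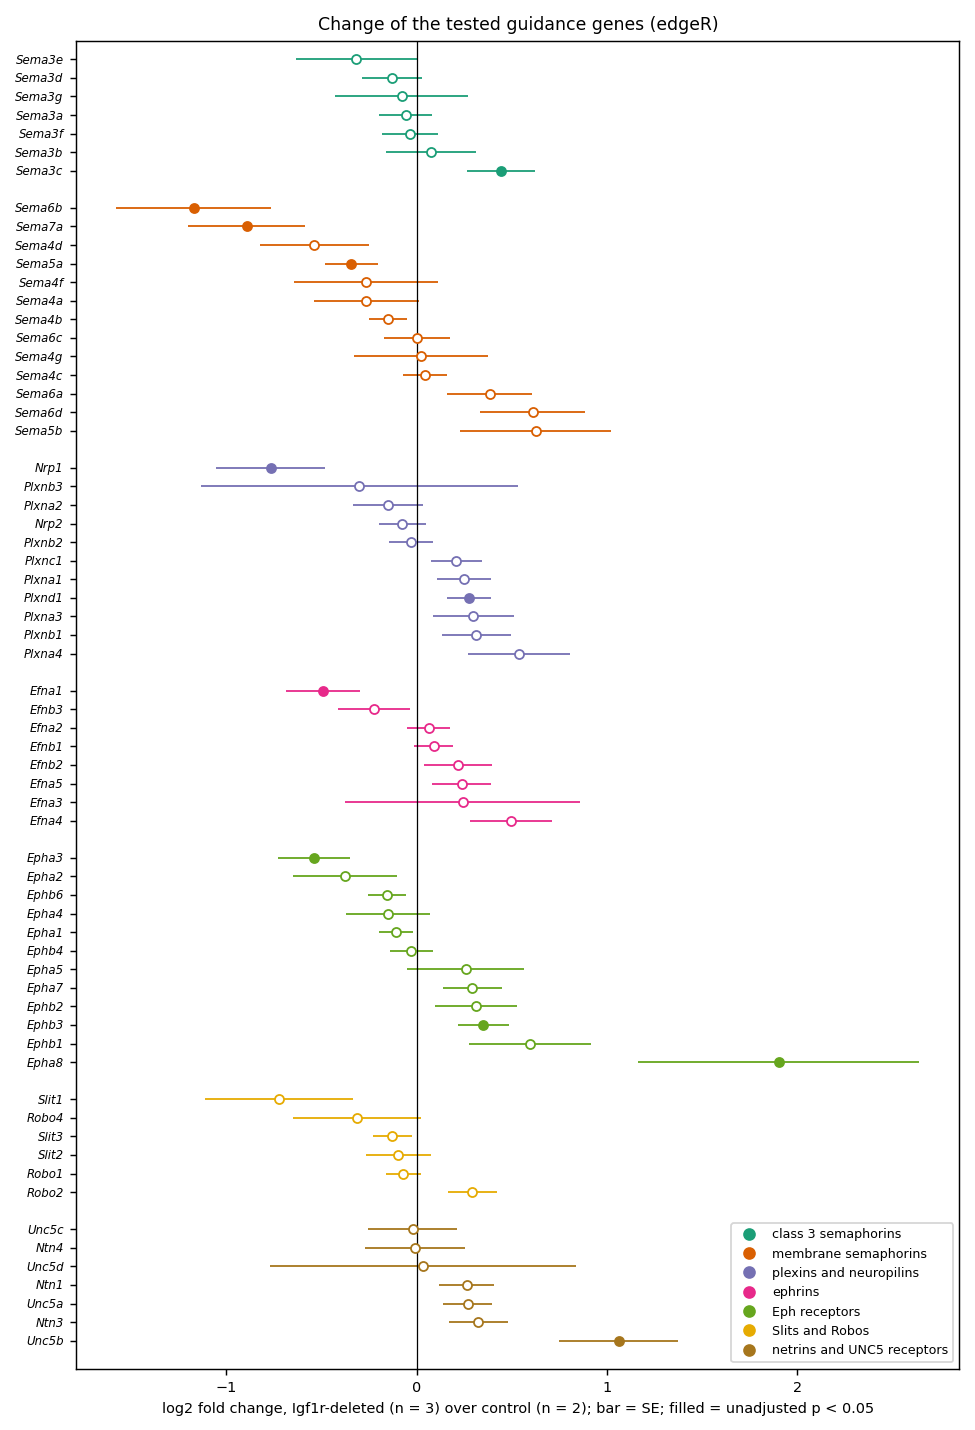
Log2 fold change of each of the 64 tested guidance genes, Igf1r-deleted (n = 3) over control (n = 2), with the standard error as a bar and filled dots for the 11 genes with an unadjusted p under 0.05. Genes lie on both sides of 0 in every family, and Unc5b and Epha8 lie farthest to the right, Sema6b farthest to the left.

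The netrin receptor gene Unc5b was the guidance gene with the lowest unadjusted p in edgeR (0.0108) and the only one called by DESeq2. UNC5B is a repulsive receptor for netrin-1, also known from endothelium, and its gene occupies positions 60762593 to 60831581 of chromosome 10 (mm10, minus strand). It had 34.9 CPM in control replicate 1 and 68.2 CPM in control replicate 2, against 78.9, 132 and 113 CPM in Igf1r-deleted cells. The genotypes did not overlap, though the controls differed from each other more than control replicate 2 did from Igf1r-deleted replicate 1. The log2 fold change was 1.06 (standard error 0.31, edgeR adjusted p = 0.354), or 2.09-fold, and DESeq2's Wald test gave an adjusted p of 0.0374. With control replicate 1 left out it was 0.66 and with control replicate 2 left out it was 1.62. With the replicate number as a block the edgeR adjusted p was 0.00812, and the unadjusted p stayed under 0.05 in every setting but the one with control replicate 1 left out.

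The ligands and the other receptors of the netrin system had smaller differences. Ntn1, which encodes netrin-1, had 212 and 281 CPM in control cells, against 269, 313 and 306 CPM in Igf1r-deleted cells, with an overlap at Igf1r-deleted replicate 1 (log2 fold change 0.26, standard error 0.15). It was 0.070 with control replicate 1 left out and 0.47 with control replicate 2 left out. Ntn3 had 47.3 and 67.7 CPM against 73.9, 68.1 and 74.2 CPM (0.32, standard error 0.16). Unc5a was at 15.7 and 14.0 CPM against 16.5, 18.8 and 18.2 CPM (0.27, standard error 0.13). For Ntn3 and Unc5a the genotypes did not overlap, and all 3 genes had an unadjusted p above 0.05. Unc5c, the most abundant UNC5 gene, was at 279 and 449 CPM against 442, 302 and 333 CPM and did not separate the genotypes. On the log2 scale it differed by −0.020, which was −0.33 with control replicate 1 left out and 0.35 with control replicate 2 left out. Of the 7 tested netrins and UNC5 receptors, 5 were higher and 2 lower, with a median of 0.26.

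Neogenin, encoded by Neo1, is the netrin and RGM receptor with far more transcript in these cells than Dcc. It was taken from a list of 59 partners of the guidance receptors and had 1040 and 968 CPM in control cells, against 920, 652 and 690 CPM in Igf1r-deleted cells. All 3 Igf1r-deleted libraries were below both controls (log2 fold change −0.41, standard error 0.17, edgeR adjusted p = 0.397). Without Igf1r-deleted replicate 2 the log2 fold change was −0.32, and without Igf1r-deleted replicate 1 it was −0.59. Its other ligands Rgma (62.0 and 51.1 CPM against 46.9, 52.5 and 46.3 CPM) and Rgmb (50.2 and 47.0 CPM against 37.0, 44.4 and 45.7 CPM) had log2 fold changes of −0.22 and −0.20, with unadjusted p-values of 0.109 and 0.141 in edgeR.

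The coreceptor Nrp1 had the largest absolute difference in CPM between the genotype means. Neuropilin-1 binds class 3 semaphorins and VEGF-A, and Nrp1 lies on chromosome 8 from 128358604 to 128503363 on the plus strand. It had 943 and 532 CPM in the controls (mean 738 ± 291, SD, n = 2) and 577, 354 and 370 CPM in Igf1r-deleted cells (mean 433 ± 125, SD, n = 3). The genotypes overlapped, because Igf1r-deleted replicate 1 lay above control replicate 2. The log2 fold change was −0.77 (standard error 0.29, edgeR adjusted p = 0.375), and it was −0.30 with control replicate 1 left out and −1.13 with control replicate 2 left out. Nrp2 was at 480 and 524 CPM against 506, 419 and 504 CPM and differed by less than its libraries did (−0.075, standard error 0.12).

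Sema3c, a secreted ligand that signals through neuropilins and plexin D1, had 98.6 and 131 CPM in control cells, against 126, 177 and 165 CPM in Igf1r-deleted cells. Igf1r-deleted replicate 1 lay below control replicate 2, and the other Igf1r-deleted libraries lay above both controls (log2 fold change 0.44, standard error 0.18, edgeR adjusted p = 0.398). With control replicate 1 left out the log2 fold change was 0.25. Plxnd1 had 329 and 333 CPM against 361, 436 and 405 CPM, with no overlap (0.27, standard error 0.11, edgeR adjusted p = 0.398). The remaining class 3 semaphorins ranged from −0.32 for Sema3e to 0.077 for Sema3b on the log2 scale, each with an unadjusted p above 0.05 and with overlapping genotypes. Sema3a, the classic repellent of this class, was at 22.0 and 21.3 CPM against 24.2, 19.1 and 19.1 CPM.

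**Figure D3:**
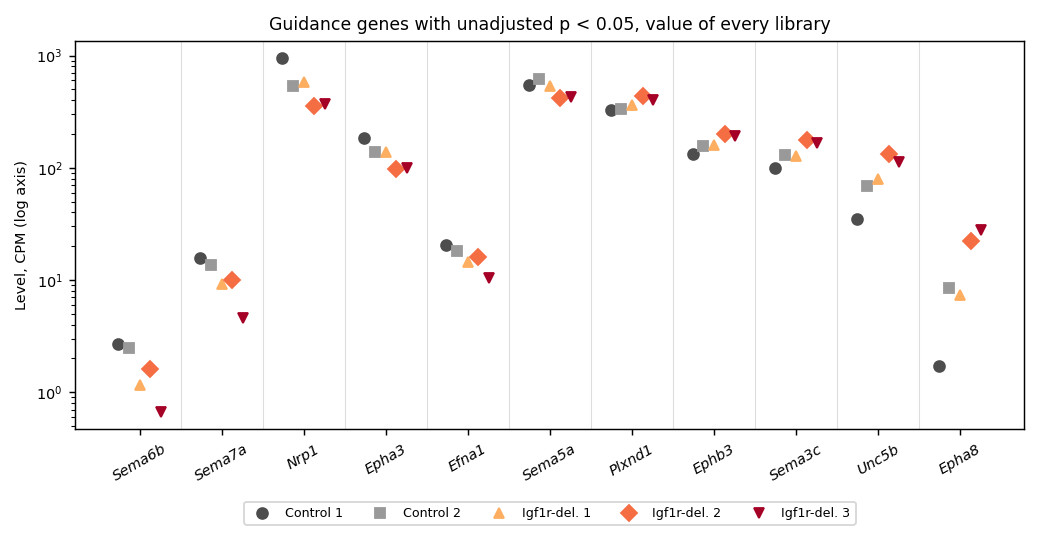
CPM of the 11 guidance genes with an unadjusted p under 0.05 in each of the 5 libraries, on a log axis, ordered by log2 fold change. Control replicate 1 is the highest or the lowest library for 10 of the 11 genes (90.9%, against 54.4% of all genes tested). Igf1r-deleted replicate 1 is the Igf1r-deleted library nearest the controls for 8 of the 11 (72.7%, against 47.1%). The 11 genes were picked by p on these same values.

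Of the 13 membrane semaphorins, 3 were lower at an unadjusted p under 0.05 (23.1%, against 6.75% of all genes tested) and 0 were higher (against 5.65%). Sema5a, whose protein carries thrombospondin repeats, had 541 and 620 CPM in control cells, against 530, 417 and 427 CPM in Igf1r-deleted cells. Its genotypes did not overlap, with Igf1r-deleted replicate 1 just below control replicate 1 (log2 fold change −0.34, standard error 0.14, edgeR adjusted p = 0.398). Sema7a, a GPI-anchored semaphorin that binds integrins and plexin C1, had 15.7 and 13.7 CPM against 9.15, 9.98 and 4.59 CPM. The groups were apart in every library (−0.89, standard error 0.31, edgeR adjusted p = 0.357), and the log2 fold change was −0.62 without Igf1r-deleted replicate 3 and −1.10 without Igf1r-deleted replicate 2. Sema6b was scarce, at 2.71 and 2.48 CPM against 1.16, 1.61 and 0.668 CPM, again without overlap (−1.17, standard error 0.40, edgeR adjusted p = 0.357).

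Sema6d, Sema6a and the plexin gene Plxna4 had higher means in the Igf1r-deleted libraries but overlapped. Sema6a and Plxna4 were named after their values were seen. Sema6d had 60.8 and 83.2 CPM in control cells, against 70.8 to 136 CPM in Igf1r-deleted cells. Sema6a had 46.4 and 77.4 CPM against 67.5, 83.5 and 91.2 CPM, and Plxna4 had 49.2 and 78.3 CPM against 65.1, 112 and 101 CPM. In each, Igf1r-deleted replicate 1 lay between the controls. The log2 fold changes were 0.61 (standard error 0.28), 0.38 (standard error 0.23) and 0.54 (standard error 0.27), with unadjusted p-values of 0.0619, 0.131 and 0.0847 in edgeR. With the replicate block all 3 had an unadjusted p under 0.05, as had Plxnb1, and for Sema6d it was 0.00896 there and 0.0312 in DESeq2's Wald test. Of the 8 tested plexins besides Plxnd1, none had an unadjusted p under 0.05 in edgeR with all libraries kept and no block. Their log2 fold changes ran from −0.30 for the near-silent Plxnb3 to 0.54 for Plxna4. Among the other A-type plexins, Plxna2 was lower (−0.15), whereas Plxna1 (0.25) and Plxna3 (0.30) were higher. With Igf1r-deleted replicate 1 left out, Plxna4 and Plxnb1 had an unadjusted p under 0.05 in edgeR. Plxnb2, the most abundant plexin gene, was at 389 and 424 CPM against 438, 388 and 367 CPM.

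Of the 8 ephrins, Efna1 was lower at an unadjusted p under 0.05 in edgeR, and Efna4 lay close to that threshold on the higher side. Ephrin-A1, a GPI-anchored ligand known from endothelium and epithelium, had 20.5 and 18.2 CPM in control cells, against 14.6, 16.1 and 10.5 CPM in Igf1r-deleted cells. The genotypes did not overlap (log2 fold change −0.49, standard error 0.19, edgeR adjusted p = 0.388). The study displayed Efna1 among PI3K/AKT genes picked on these libraries, so its direction is not independent evidence. Without Igf1r-deleted replicate 3 the log2 fold change was −0.33, and the unadjusted p was above 0.05 with library totals and with the replicate block (0.0636). Efna4 lies in the same cluster on chromosome 3, where 32.8 kb separate Efna1 from Efna3 and 10.4 kb separate Efna3 from Efna4. It went the other way, with 10.7 and 17.8 CPM in control cells, against 19.5, 22.1 and 18.7 CPM in Igf1r-deleted cells (0.49, standard error 0.22, edgeR unadjusted p = 0.0538). Its unadjusted p was 0.0468 in DESeq2's Wald test, and it was also under 0.05 in edgeR with library totals, without a filter, with the replicate block and with control replicate 2 left out. Efna3, between them, stayed at or below 1.03 CPM. The dominant ephrin gene Efnb1 had 356 and 340 CPM against 392, 357 and 361 CPM, a narrow gap without overlap (0.089, standard error 0.10).

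The Eph receptors went in both directions. Epha3, a receptor for A-type ephrins, had 185 and 138 CPM in control cells, against 137, 97.6 and 98.7 CPM in Igf1r-deleted cells. The genotypes were apart, but by a margin of under 1 CPM between control replicate 2 and Igf1r-deleted replicate 1 (log2 fold change −0.54, standard error 0.19, edgeR adjusted p = 0.364). With control replicate 1 left out the log2 fold change was −0.32. Ephb3, a receptor for B-type ephrins, had 133 and 157 CPM against 161, 199 and 193 CPM, with no overlap (0.35, standard error 0.13, edgeR adjusted p = 0.375). The log2 fold change was 0.23 with control replicate 1 left out. Ephb4 was at 172 and 182 CPM against 176, 189 and 155 CPM, and its log2 fold change of −0.027 changed sign with library totals or the replicate block.

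Epha8 had the largest fold change of the tested guidance genes, and its value depended strongly on single libraries. It had 1.70 and 8.51 CPM in control cells, against 7.31, 22.3 and 27.9 CPM in Igf1r-deleted cells. The controls alone differed several-fold, and Igf1r-deleted replicate 1 lay below control replicate 2. The log2 fold change of 1.90 (standard error 0.74, edgeR adjusted p = 0.386) was 1.16 with control replicate 1 left out and 3.48 with control replicate 2 left out. Its adjusted p was 0.0119 in edgeR with the replicate block and 0.357 with DESeq2's Wald test, where the unadjusted p was 0.0605. Ephb2, whose gene lies 93.4 kb from Epha8 on chromosome 4, had 34.3 and 59.6 CPM against 58.4, 54.0 and 62.5 CPM and overlapped.

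None of the 6 tested Slit and Robo genes had an unadjusted p under 0.05. Slit2 had 1141 and 1577 CPM in control cells, against 1430, 1191 and 1193 CPM in Igf1r-deleted cells, and the difference (−0.096 on the log2 scale) was −0.32 with control replicate 1 left out and 0.15 with control replicate 2 left out. Slit3 had 391 and 402 CPM against 389, 345 and 356 CPM, all Igf1r-deleted libraries lying just below the controls (−0.13, standard error 0.10). Robo1, their receptor gene, stayed within 221 to 245 CPM in all 5 libraries. Robo2 had 272 and 337 CPM against 346, 374 and 399 CPM, with no overlap (0.29, standard error 0.13), and had an unadjusted p of 0.0564 in edgeR and 0.0447 in DESeq2's Wald test. Its log2 fold change was 0.14 with control replicate 1 left out and 0.44 with control replicate 2 left out.

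The study did not find the GFP reporter in epithelium, endothelium or blood cells, so the sort would leave these out, but their markers were present at the levels given here. In a sorted bulk sample, fewer cells of a type and less RNA per cell cannot be told apart. The hematopoietic markers had 4 of 12 tested genes lower and 0 higher at an unadjusted p under 0.05 (6.75% and 5.65% of all genes tested, also for the lists that follow), and their summed level was 655 and 435 CPM in control cells, against 220 to 516 CPM in Igf1r-deleted cells. Ptprc, which encodes CD45, was at 12.2 to 31.1 CPM, and Hbb-bs was at 0 counts in all libraries. The leukocyte semaphorin genes Sema4d (5.29 to 11.5 CPM) and Sema4a (7.29 and 5.84 CPM against 7.11, 5.36 and 3.92 CPM) had the library order of that sum. These 2 of 64 guidance genes are 3.13%, near the 2.59% of all genes tested with that order, and were noticed after their values were seen. Sema7a is also known from leukocytes, and the part of such cells in its difference was not tested.

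The endothelial markers had 0 of 16 tested genes called in either direction. Their summed level was 933 and 914 CPM in control cells, against 885, 1272 and 550 CPM in Igf1r-deleted cells, and Cdh5, a defining marker, was at 58.4 to 206 CPM. The epithelial sum had the same library order, as had Robo4, a Robo of endothelium (1.56% of the guidance genes against 0.739% of all genes), at 9.68 and 8.05 CPM against 7.03, 10.1 and 4.23 CPM. Sema3g, known from arterial endothelium, had likewise its highest value in Igf1r-deleted replicate 2 and its lowest in replicate 3 (19.1 and 15.0 CPM against 15.4, 23.7 and 9.18 CPM). Plxnd1 and Unc5b, which endothelium also expresses, were both highest in Igf1r-deleted replicate 2, where the endothelial sum was highest too. Both were next highest in Igf1r-deleted replicate 3, where that sum was lowest. Efna1 was lowest in Igf1r-deleted replicate 3. The part of endothelial or epithelial cells in the differences of Plxnd1, Unc5b and Efna1 was not tested.

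**Figure D4:**
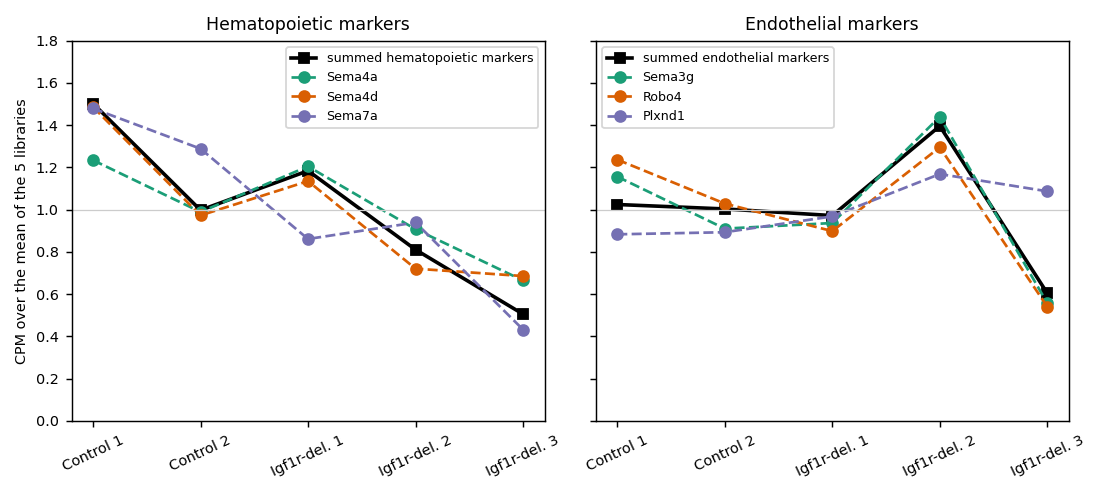
CPM of each library over the mean of the 5 libraries, for the summed hematopoietic markers with Sema4a, Sema4d and Sema7a (left) and for the summed endothelial markers with Sema3g, Robo4 and Plxnd1 (right). Lines only join the points of a gene. Sema4a and Sema4d have the library order of the hematopoietic sum. Plxnd1 and the endothelial sum are both highest in Igf1r-deleted replicate 2. In Igf1r-deleted replicate 3 the sum is lowest and Plxnd1 next highest.

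Of the epithelial markers 2 of 16 were lower and 0 higher (summed level 1238 and 1154 CPM against 568 to 1245 CPM), and of the pericyte markers 2 of 11 were lower and 0 higher (1102 and 1344 CPM against 1096 to 1276 CPM). The smooth muscle list had 1 of 10 lower and 4 higher (2439 and 2389 CPM against 2196 to 2456 CPM), and the myofibroblast list had 0 of 12 lower and 6 higher (22765 and 18238 CPM against 17431 to 19635 CPM). The matrix fibroblast and lipofibroblast list had 1 of 17 lower and 2 higher (46563 and 50234 CPM against 40341 to 49886 CPM). No mesothelial gene of 6 was called (444 and 450 CPM against 341 to 454 CPM), and of 7 neuronal and glial genes 1 was higher, with the defining marker Sox10 below 0.5 CPM in every library. Unc5b, Ephb3 and Plxnd1 had the library order of Acta2, which encodes the αSMA of myofibroblasts (407 and 655 CPM against 764, 1067 and 907 CPM), 3 of 64 (4.69%) against 2.81% of all genes tested. The summed myofibroblast list had another order, with control replicate 1 highest and Igf1r-deleted replicate 2 lowest. Gene by gene, the median log2 fold change of its 12 tested genes was 0.30. Acta2 was picked after its values were seen and does not have the order of the sum. Nrp1 had the order of that sum (2.56% of all genes), Sema3a that of the smooth muscle sum (1.33%) and Sema3e that of the pericyte sum (0.458%). The study found a myofibroblast signature enriched among the genes higher in these Igf1r-deleted cells. At a later age it counted a larger share of myofibroblasts and a smaller share of lipofibroblasts among GFP-labeled cells. It proposes that the signature may reflect the larger proportion of myofibroblasts. The part of cell composition in the differences of the guidance genes was not tested here.

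Of the 59 partner genes in the table, all were tested, and 1 was lower (Neo1) and 2 were higher (Tiam1 and Dpysl2) at an unadjusted p under 0.05. This is 5.08% of the list, against 12.4% of all genes tested, and the median log2 fold change was 0.038. Tiam1, which encodes a Rac exchange factor, had 45.6 and 60.7 CPM in control cells, against 60.6, 84.2 and 94.0 CPM in Igf1r-deleted cells, with an overlap of under 1 CPM (0.58, standard error 0.21, edgeR adjusted p = 0.364). With control replicate 1 left out its log2 fold change was 0.39. Dpysl2, which encodes the collapsin response mediator CRMP2, had 102 and 101 CPM against 114, 115 and 132 CPM, without overlap (0.25, standard error 0.11, edgeR adjusted p = 0.401). Neither Dcc (0.66, standard error 0.35) nor the other 55 partners had an unadjusted p under 0.05.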

How the data were processed

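The deposited table holds raw read counts per gene symbol, 1 column per library, which the authors made by trimming with Trim Galore, aligning to mm10 with Bowtie2 and counting with Bioconductor's GenomicAlignments. No normalization was applied. Versions, annotation and the use of strand are not given in the sources used here.

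Libraries were grouped by the genotype in their titles. Counts were tested with edgeR 4.0.16 (R 4.3.3): filterByExpr (minimum count 10), TMM factors, quasi-likelihood F test, two-sided, genotype as the only term, Benjamini-Hochberg adjustment over the 15298 genes tested. Standard errors are the log2 fold change over the square root of F. With 2 against 3 libraries no permutation p can go below 0.1. The alternatives were DESeq2 1.42.0 (Wald test, with 3563 adjusted p-values not given), its size factors, library totals, no filter, at least 10 counts in every library, a replicate block, leaving out each library and, added after seeing the data, DESeq2's values in the study's limits. Exon lengths, positions and overlaps came from GENCODE M21 (mm10), in which all 70 guidance symbols were found, and promoters from RefSeq (GRCm38.p6). The test was tried on simulated counts. Between libraries of the same genotype, chi-square over degrees of freedom was 23.2 to 50.7, so none was a duplicate.

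The members and lists were chosen with earlier results of these data known. The genes named are those with an unadjusted p under 0.05 in edgeR, or an adjusted one in DESeq2, the 3 most abundant per kilobase in each family, and called partners with Dcc and Neo1. Other genes were named after their values were seen. The lists, written from general knowledge, were pathway partners and endothelial, epithelial, hematopoietic, pericyte, smooth muscle, myofibroblast, matrix fibroblast with lipofibroblast, mesothelial, and neuronal and glial markers. The summed level of the neuronal and glial list is not reported here.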

Additional observations from a re-analysis of the deposited data

How the results depend on the processing

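The 6 lower guidance genes at an unadjusted p under 0.05 numbered 4 to 6 under the settings that kept all libraries, and 2 to 7 with a library left out. The 5 higher ones were 9 with library totals, 8 without a filter and 10 with the replicate block, and 0 to 16 with a library left out (0 without control replicate 1). The guidance genes without overlap were 6 lower with library totals, and 10 to 18 lower and 9 to 27 higher with a library left out. Over all genes, 2287 were lower and 2450 higher without overlap in the main fit, and 1659 were lower with library totals. Both counts rose over all genes too with any library left out. Without an Igf1r-deleted library they were 2976 to 4080 lower and 3040 to 4370 higher, of 15100 to 15153 genes. Adjusted calls were 1 with DESeq2's Wald test and 2 with the replicate block (Unc5b and Epha8), and 0 in edgeR with any library left out. Over all genes, the share with an unadjusted p under 0.05 also moved, from 12.4% to 13.6% with library totals, 11.3% without a filter and 13.4% with the replicate block. It was 21.0%, 6.58% and 7.35% without Igf1r-deleted replicates 1, 2 and 3. The guidance counts of 0 and 16 higher genes come from fits with 1 control left, so no conclusion is drawn from them. The median log2 fold change of the guidance genes was 0.079 with library totals (0.088 over all genes), 0.047 with the replicate block, and −0.026 to 0.068 with a library left out. Partner genes were 2 lower with DESeq2's Wald test, DESeq2's size factors or no filter, and 0 to 3 lower with a library left out. They were 1 higher with those 3 settings and with at least 10 counts in every library, 5 higher with library totals, 4 higher with the replicate block, and 0 to 7 higher with a library left out.

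Some differences near 0 changed sign. With library totals the log2 fold changes were 0.047 (Ephb4), 0.039 (Plxnb2), 0.039 (Sema3f) and 0.043 (Unc5c). With the replicate block they were 0.049 (Ephb4), 0.022 (Plxnb2), 0.089 (Sema3f), 0.045 (Unc5c) and −0.012 (Sema4c). With a library left out they ran from −0.10 to 0.046 (Ephb4), −0.11 to 0.021 (Plxnb2), −0.24 to 0.0049 (Sema3d), −0.15 to 0.088 (Sema3f), −0.025 to 0.11 (Sema4c), −0.32 to 0.15 (Slit2) and −0.33 to 0.35 (Unc5c). The cause was not tested. The genotypes share the replicate numbers 1 and 2, and the labels do not say that a number marks a litter or batch. Deviations correlated at 0.208 and 0.121 between same-numbered libraries, but also at 0.119 between control replicate 2 and Igf1r-deleted replicate 3. With 2 controls their deviations from the mean mirror each other, so these correlations are not separate observations. They and 2 pairs do not establish a pairing, so the replicate block is only an alternative.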
